A study of Homo sapiens with 18 samples.

Results

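The chaperones that fold proteins in the endoplasmic reticulum (ER) were followed in control and senescent human fibroblasts given inhibitors of N-myristoyltransferase (NMT), the enzyme that attaches the fatty acid myristate to the amino terminus of proteins. The group holds 10 genes, taken by symbol from the raw count table of 28266 genes. They are HSPA5, HYOU1, DNAJB9, DNAJC3, HSP90B1, CALR, CANX, PDIA3, PDIA4 and PDIA6. All 10 were among the 14341 genes that passed the filter on low counts. The cells were IMR90 ER:RAS, a human lung fibroblast line that carries a RAS oncogene fused to the ligand-binding part of the oestrogen receptor, so that 4-hydroxytamoxifen (4OHT) switches RAS on and drives the cells into oncogene-induced senescence. All 6 groups carry this transgene and none tests the compounds in cells without it. Control cells had received the solvent DMSO and senescent cells 100 nM 4OHT for 7 days. Each state was then split into cells given DMSO, IMP1088 (300 nM) or DDD86481 (1.5 µM) for 3 days, which were collected at day 10. Each of the 6 groups had 3 poly(A) RNA-seq libraries, 18 in all. The labels do not say what a replicate is, while the study describes its replicates of these data as independent experiments.

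Proteins that enter the secretory pathway are threaded into the ER unfolded. BiP, the product of HSPA5, is an HSP70 that binds exposed hydrophobic stretches in cycles driven by ATP, with J-domain proteins such as DNAJB9 and DNAJC3 that bring it substrate and speed hydrolysis, and with HYOU1 as a large HSP70-like partner that exchanges its nucleotide. HSP90B1 (GRP94) is the HSP90 of the ER, CALR and CANX are lectins that hold glycoproteins by their trimmed sugars, and PDIA3, PDIA4 and PDIA6 make and rearrange disulphide bonds. When unfolded protein builds up, the sensors ATF6, IRE1 and PERK set off the unfolded protein response, in which ATF6 and XBP1 bind ER stress response elements in the promoters of chaperone genes. Secretory cells, including fibroblasts and the senescent cells that release cytokines and matrix proteins, depend on this machinery.

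The elements that bear on these genes were looked up first, since they are the sequences through which the response is known to act. Of the 10 genes, 9 had a promoter window in RefSeq (GRCh38.p14), running from 250 bases before to 50 bases after a start site, with 14 windows between them, and PDIA3 had none. Both strands were searched for the ER stress response element (ERSE), which is CCAAT followed after 9 bases by CCACG, for ERSE-II, which is ATTGG followed after 1 base by CCACG, and for the XBP1 element TGACGTGG (UPRE). ERSE matched in HSPA5, HSP90B1, CALR, CANX and PDIA6, with 2 matches in HSP90B1, while HYOU1 held 2 ERSE-II matches and a UPRE that overlaps one of them. Among all 35116 windows of this length, 27 (0.0769%) held an ERSE, 19 (0.0541%) an ERSE-II and 256 (0.729%) a UPRE. The windows of PDIA4, DNAJB9 and DNAJC3 held none of these letters, which says nothing about other forms of the elements or other stretches. The matches are printed below 5′ to 3′ on the strand of the gene with 10 bases on each side, and capitals mark the matched letters on either strand.
HSPA5 (chr9:125241381-125241419, minus strand): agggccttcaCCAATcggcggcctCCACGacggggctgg
HSP90B1, distal (chr12:103930206-103930244, plus strand): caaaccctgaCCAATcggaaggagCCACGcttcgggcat
HSP90B1, proximal (chr12:103930311-103930349, plus strand): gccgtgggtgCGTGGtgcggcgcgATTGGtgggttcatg
CALR (chr19:12938374-12938412, plus strand): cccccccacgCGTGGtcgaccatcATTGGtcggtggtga
CANX (chr5:179698768-179698806, plus strand): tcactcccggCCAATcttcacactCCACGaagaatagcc
PDIA6 (chr2:10812843-10812881, minus strand): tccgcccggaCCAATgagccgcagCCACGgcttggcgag
HYOU1, distal ERSE-II (chr11:119057370-119057400, minus strand): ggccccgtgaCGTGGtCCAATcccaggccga
HYOU1, proximal ERSE-II (chr11:119057264-119057294, minus strand): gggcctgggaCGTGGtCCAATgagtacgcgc
HYOU1, UPRE (chr11:119057376-119057403, minus strand): gctggccccgTGACGTGGtccaatccca
The proximal HSP90B1 match, the CALR match and the HYOU1 ERSE-II matches lie in the reverse orientation. In these the reverse complement of CCACG comes first. In HSPA5 the match spans positions within 76 to 38 bases before the start site, flanks included.

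In GENCODE on GRCh37, the genes lie on 9 chromosomes. HSPA5 spans chromosome 9 from 127997132 to 128003661 on the minus strand, with 8 exons and 3921 exonic bases in its canonical transcript. HYOU1 spans chromosome 11 from 118914899 to 118927938 on the minus strand, with 26 exons. DNAJB9 spans chromosome 7 from 108210311 to 108215294 on the plus strand, with 3 exons, and PDIA4 the same chromosome from 148700154 to 148725754 on the minus strand, with 10. These values show that gene sizes differ widely, so levels of different genes are compared per kilobase of exon, except for shares of counts, which are not divided by length. DNAJC3 spans chromosome 13 from 96329393 to 96447242, HSP90B1 chromosome 12 from 104323885 to 104347709 and CALR chromosome 19 from 13049392 to 13055303, all on the plus strand. CANX spans chromosome 5 from 179105629 to 179158642 and PDIA3 chromosome 15 from 44038592 to 44065477, both on the plus strand. PDIA6 spans chromosome 2 from 10923517 to 10978103 on the minus strand. Some of these exons are shared with genes on the other strand. Of the exonic bases of PDIA6, 45.3% overlap ATP6V1C2, and the largest such overlap was 16.9% for PDIA3 (ELL3), 14.5% for HYOU1, 14.2% for CALR and 10.1% for HSP90B1. Whether the deposited counts used strand is not given in the sources used here in a way that settles it, so reads of these partners may be included.

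Library totals ran from 16143716 to 23189950 counts. All 9 fibroblast marker genes checked were expressed, at a median above 10 counts per 1000000 (CPM), and KRT5, SFTPC and CD3E, which define basal epithelial, alveolar epithelial and T cells, had 0 counts in all 18 libraries. Other markers were present at low level, with KRT8 at 7.16 to 29.1 CPM, EPCAM at 0.374 to 1.44 CPM and VWF at 0.805 to 6.43 CPM. The summed fibroblast markers were 27200 to 41200 CPM in control libraries, 22900 to 25100 CPM in senescent libraries with DMSO and 16000 to 18300 CPM in senescent libraries with an inhibitor. The summed level of a 4-gene leukocyte list, of which only CD68 was tested, was 15 to 24.1 CPM in control and 91.3 to 164 CPM in senescent libraries. Summed endothelial markers were 1.17 to 3.97 CPM in control and 5.68 to 10.7 CPM in senescent libraries, and summed epithelial markers 17.6 to 30.6 CPM and 7.63 to 10.5 CPM. The part of these markers in the results below was not tested. Control DMSO replicate 3 stood apart from the other libraries of its group. Its counts differed from those of replicates 1 and 2 by a chi-square per gene of 104.1 and 52.64, against 5.26 to 27.97 in every other pair of replicates. The fold changes of the 10 chaperones, and those of the other genes named by rule in the 4 comparisons of an inhibitor with DMSO, were also computed without this library, and values are given where a call changed. Counts over the other gene lists and genes named after their values were seen were not recomputed in this way.

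Chaperone transcripts were abundant before any treatment. In control cells with DMSO, the mean level per kilobase of exon was 786 CPM per kb for CALR, 308 CPM per kb for HSP90B1 and 210 CPM per kb for HSPA5. It was 171 CPM per kb for PDIA6, 129 CPM per kb for PDIA3, 121 CPM per kb for CANX and 92.6 CPM per kb for PDIA4. It was lowest for the partners of BiP, at 30.4 CPM per kb for HYOU1, 14.9 CPM per kb for DNAJC3 and 12.0 CPM per kb for DNAJB9. The messages of CALR and HSP90B1 thus stood above that of BiP in this state. In senescent cells with IMP1088 the order at the top was CALR at 1253, HSPA5 at 1185 and HSP90B1 at 709 CPM per kb, so HSPA5 had passed HSP90B1. HSPA5 also stood above HSP90B1 in the other groups given an inhibitor, at 487 against 404 CPM per kb in control cells with IMP1088. In senescent cells with IMP1088 DNAJB9, at 62.7 CPM per kb, stood above DNAJC3 at 30.9 CPM per kb. DNAJB9 was already above DNAJC3 in senescent cells with DMSO (17.1 against 14.4 CPM per kb), and also in control cells given an inhibitor.

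**Figure D1:**
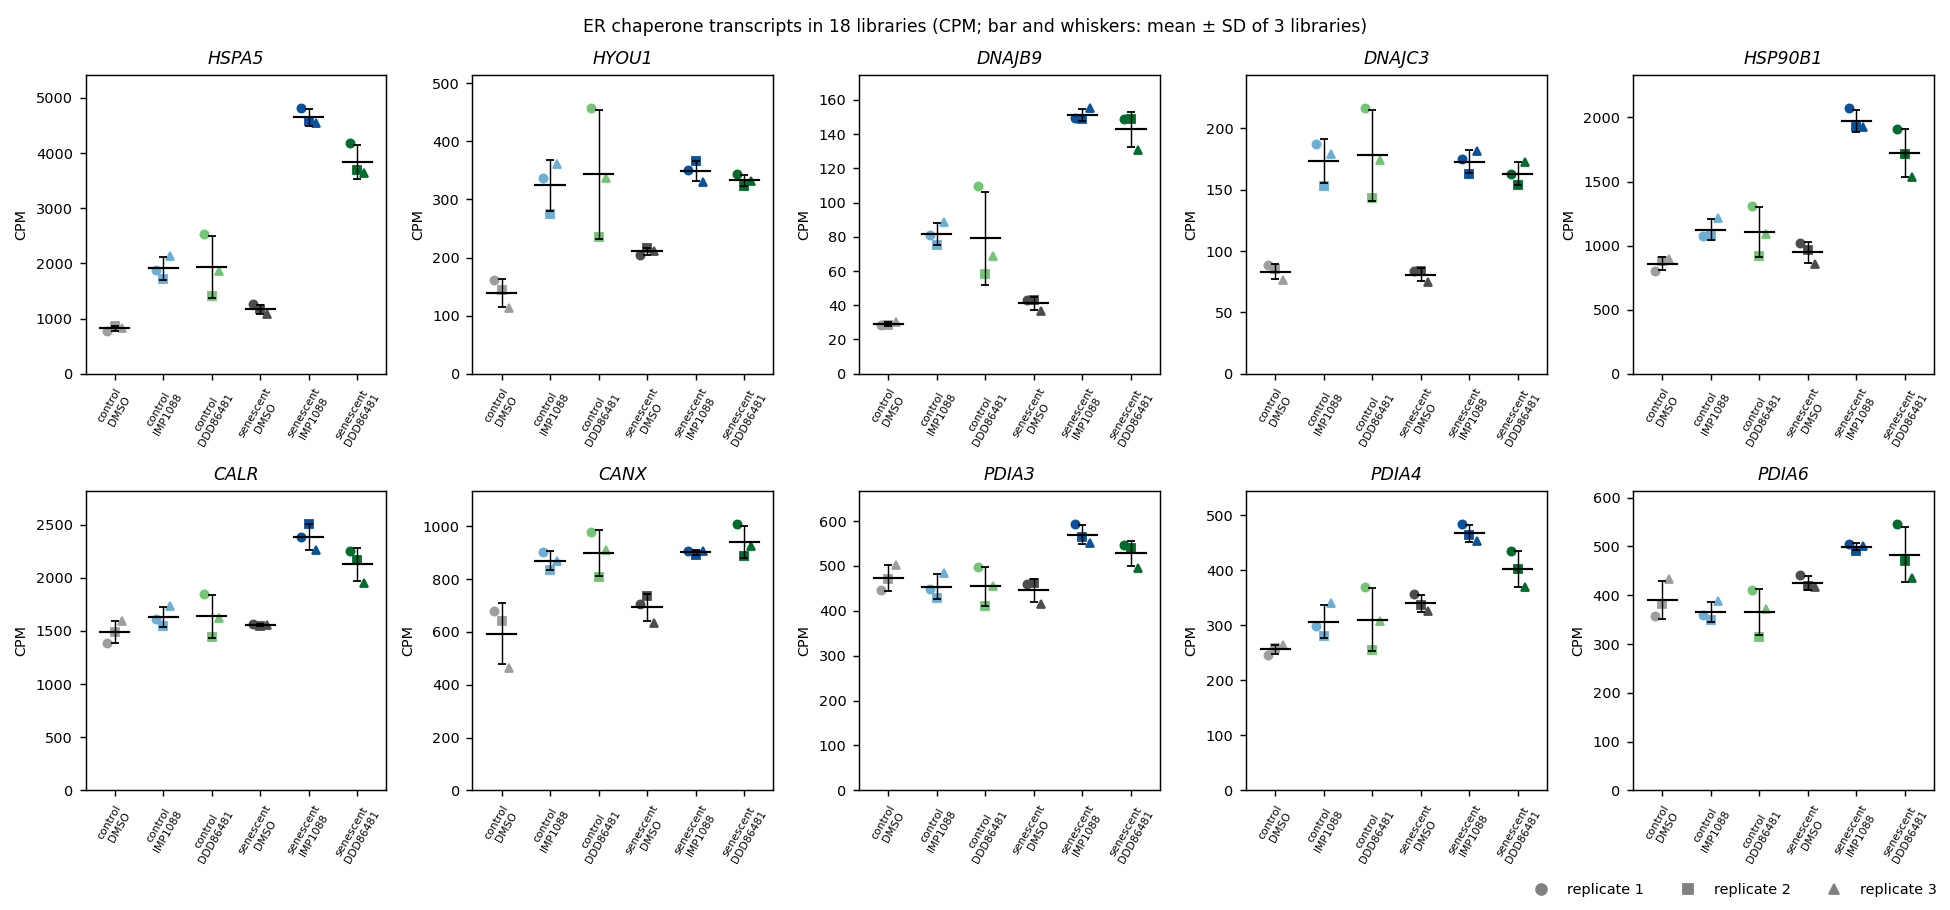
Level of each ER chaperone transcript (y axis, CPM, from 0) in the 18 libraries of the 6 groups (x axis), with points shaped by replicate and a bar and whiskers for the mean ± SD of 3 libraries. HSPA5 rises from 822 CPM in control cells with DMSO to 4648 CPM in senescent cells with IMP1088, whereas PDIA6 stays between 366 and 499 CPM in all group means.

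The inhibitors raised most of these transcripts in both states. In senescent cells, 9 of the 10 were higher with IMP1088 than with DMSO and none was lower, where 20.6% of all genes tested were called higher and 23.9% lower. With DDD86481 in senescent cells, 8 were higher and none lower, against 20.1% and 23.1% of all genes. In control cells, 6 were higher and none lower with IMP1088, against 16.3% and 17.4% of all genes, and 6 higher and none lower with DDD86481, against 17.8% and 18.7%. A call means an adjusted p under 0.05 by edgeR's quasi-likelihood test with Benjamini-Hochberg adjustment over all 14341 genes, and fold changes are on the log2 scale with their standard error. The median log2 fold change of the 10 genes was 0.67 and 0.56 for IMP1088 and DDD86481 in senescent cells and 0.47 and 0.48 in control cells, against medians of all genes between -0.04 and 0. In bulk RNA, fewer cells with a high level and less RNA per cell cannot be told apart, and CPM is relative to all other RNA. Both compounds were set against the same DMSO libraries in each state, and their doses differ, so their values stand side by side and are not compared.

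Senescence itself moved fewer of them. Between senescent and control cells with DMSO, 4 of the 10 were higher and none lower, where 32.5% of all genes were called higher and 36% lower, so this count is near the background. The 4 were HSPA5, HYOU1, DNAJB9 and PDIA4, and the median log2 fold change of the 10 was 0.18 against -0.05 for all genes. Under upper quartile scaling, which lowers the median of all genes in this comparison by 0.15 on the log2 scale, 3 were higher and 1 (PDIA3, -0.24, adjusted p = 0.0211) lower, and DNAJB9 no longer passed (0.35, adjusted p = 0.0509). The differences of HSP90B1, CALR and PDIA6, which were small and not past the threshold, turned negative under that scaling.

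**Figure D2:**
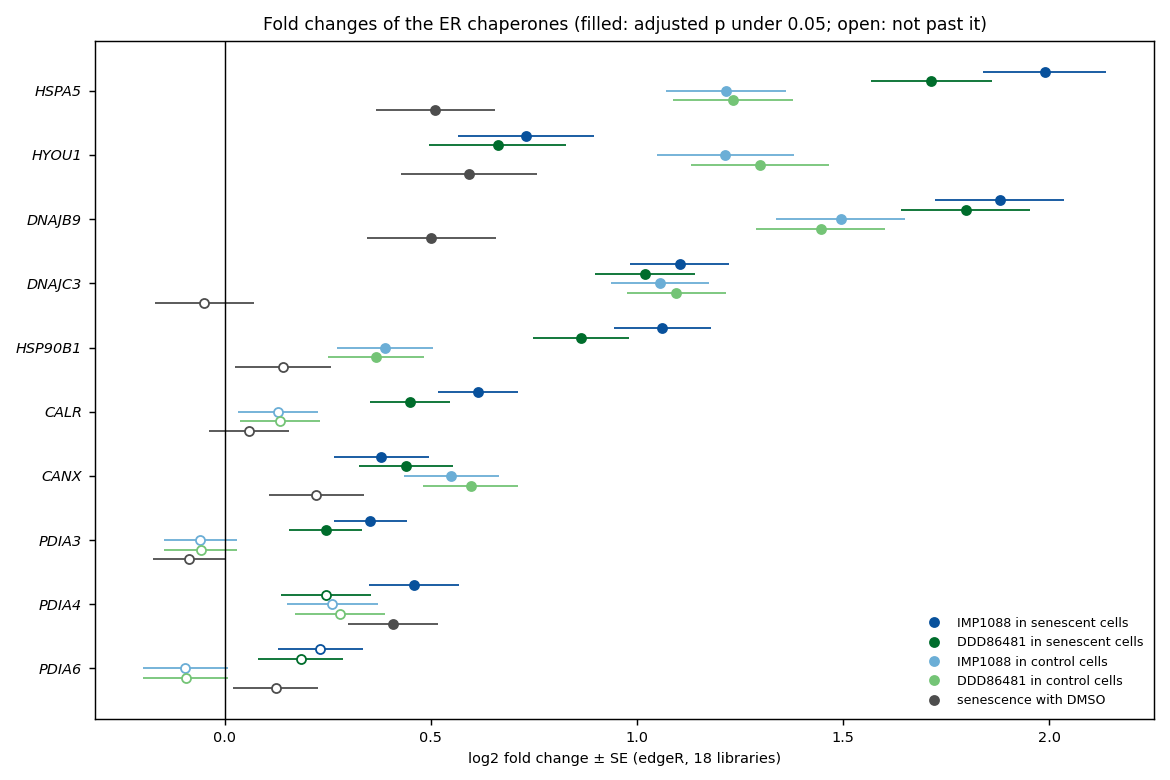
Log2 fold change ± SE (x axis) of each ER chaperone (y axis) in 5 comparisons, from 1 edgeR fit of 18 libraries, with filled points for an adjusted p under 0.05 and open points for values that did not pass. HSPA5, DNAJB9 and DNAJC3 lie furthest to the right for the inhibitors in senescent cells, and PDIA6 is open in all 5 comparisons.

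HSPA5, which encodes BiP, had the largest log2 fold change of the 10 genes with IMP1088 in senescent cells and the next largest after DNAJB9 with DDD86481. Its level was 780, 860 and 825 CPM in the 3 control libraries with DMSO and 1256, 1165 and 1091 CPM in the 3 senescent libraries with DMSO. It was 4822, 4577 and 4544 CPM in senescent cells with IMP1088 and 4189, 3697 and 3638 CPM in senescent cells with DDD86481. Every treated senescent library thus held more HSPA5 than every library of the other 4 groups. The change was 1.99 ± 0.15 with IMP1088 (adjusted p = 3.61e-09), a 3.97-fold rise that ranked 419 by size among the 14341 genes. With DDD86481 it was 1.71 ± 0.15 (adjusted p = 2.23e-08). In control cells the 3 libraries had 1872, 1716 and 2137 CPM with IMP1088 and 2525, 1403 and 1869 CPM with DDD86481. These do not overlap the control DMSO libraries, although replicate 2 with DDD86481 was well below replicate 1. The change in control cells was 1.22 ± 0.15 (adjusted p = 3.30e-06) with IMP1088 and 1.23 ± 0.15 (adjusted p = 2.88e-06) with DDD86481. Senescence with DMSO gave 0.51 ± 0.14 (adjusted p = 0.00388), and the libraries of the 2 groups did not overlap. The order of HSPA5 means was senescent IMP1088, senescent DDD86481, control DDD86481, control IMP1088, senescent DMSO and control DMSO, and of these neighbours only the third and the fourth overlapped.

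DNAJB9 (ERdj4), a J-domain partner of BiP, moved much as HSPA5 did, from the lowest level per kilobase of the 10 in control cells with DMSO. It was 28.2, 28.4 and 30.5 CPM in control cells with DMSO and 43.2, 43.3 and 36.8 CPM in senescent cells with DMSO. In senescent cells it was 149, 149 and 155 CPM with IMP1088 and 149, 149 and 131 CPM with DDD86481. The inhibitor-treated senescent libraries lie above all others. The log2 fold change was 1.88 ± 0.16 with IMP1088 (adjusted p = 1.32e-08) and 1.80 ± 0.16 with DDD86481 (adjusted p = 2.58e-08). In control cells the libraries had 81.2, 75.4 and 88.5 CPM with IMP1088 and 110, 58.5 and 68.7 CPM with DDD86481, and the changes were 1.49 ± 0.16 and 1.45 ± 0.16 (adjusted p = 5.78e-07 and 9.16e-07). All of these lie above the DMSO libraries of both states. Senescence with DMSO gave 0.50 ± 0.16 (adjusted p = 0.00796).

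DNAJC3 (p58IPK), the other J-domain partner among the 10, also known as an inhibitor of the kinase PERK, separated treated from untreated cells in both states. It was 88.2, 85.2 and 76.5 CPM in control cells and 83.6, 83.5 and 74.3 CPM in senescent cells with DMSO. With IMP1088 it was 187, 153 and 179 CPM in control and 175, 163 and 181 CPM in senescent cells. With DDD86481 it was 217, 143 and 174 CPM in control and 163, 154 and 173 CPM in senescent cells. All 12 treated libraries were above all 6 DMSO libraries, and the 4 treated groups overlapped one another in the order of their means. The 4 log2 fold changes were 1.10 ± 0.12 and 1.02 ± 0.12 for IMP1088 and DDD86481 in senescent cells and 1.06 ± 0.12 and 1.10 ± 0.12 in control cells, with adjusted p between 4.11e-07 and 1.67e-06. The change in senescent minus that in control cells was 0.05 ± 0.17 (adjusted p = 0.859) and -0.08 ± 0.17 (adjusted p = 0.761), and senescence with DMSO gave -0.05 ± 0.12 (adjusted p = 0.725).

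HYOU1 (ORP150, GRP170), the HSP70-like partner of BiP, had larger log2 fold changes in control than in senescent cells. In the fit of all libraries after the filter on low counts, this difference passed the test with DDD86481 only. That call was lost in most fits that left out 1 library, as given with the tests between states. It was 161, 144 and 114 CPM in control cells with DMSO, where the lowest value came from the replicate that stood apart, and 205, 216 and 211 CPM in senescent cells with DMSO. In control cells it was 337, 275 and 360 CPM with IMP1088 and 458, 235 and 337 CPM with DDD86481. Senescent libraries had 351, 366 and 331 CPM with IMP1088 and 343, 323 and 332 CPM with DDD86481. The 4 treated groups overlapped in the order of their means, while the 2 DMSO groups did not overlap. The log2 fold change was 1.21 ± 0.17 and 1.30 ± 0.17 in control cells (adjusted p = 1.47e-05 and 7.44e-06) and 0.73 ± 0.17 and 0.66 ± 0.17 in senescent cells (adjusted p = 0.00121 and 0.00282), for IMP1088 and DDD86481 in that order. Senescence with DMSO gave 0.59 ± 0.17 (adjusted p = 0.00355).

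HSP90B1 (GRP94), the ER form of HSP90, which folds integrins and Toll-like receptors among others, had larger changes in senescent than in control cells. It was 800, 881 and 893 CPM in control cells with DMSO and 1017, 966 and 855 CPM in senescent cells with DMSO, and these groups overlapped. In senescent cells it was 2075, 1922 and 1924 CPM with IMP1088 and 1911, 1718 and 1538 CPM with DDD86481, above every library of the other groups. The log2 fold change was 1.06 ± 0.12 (adjusted p = 4.83e-07) and 0.86 ± 0.12 (adjusted p = 6.23e-06). In control cells it was 1077, 1074 and 1218 CPM with IMP1088 and 1310, 915 and 1093 CPM with DDD86481. These lay above the control DMSO libraries by a margin that was narrow for replicate 2 with DDD86481. The changes there were 0.39 ± 0.12 (adjusted p = 0.0144) and 0.37 ± 0.12 (adjusted p = 0.0185). The first was lost without control IMP1088 replicate 3 (0.34, adjusted p = 0.0558). The second was lost without control DDD86481 replicate 1 (0.23, adjusted p = 0.133) and with only the 2 groups compared in the fit (0.36, adjusted p = 0.106).

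Of the 2 lectin chaperones, CALR passed the test in senescent cells only and CANX in both states. CALR, the soluble one, which also buffers ER calcium, was 1389, 1494 and 1597 CPM in control and 1564, 1549 and 1555 CPM in senescent cells with DMSO. Senescent libraries had 2385, 2502 and 2261 CPM with IMP1088 and 2254, 2169 and 1952 CPM with DDD86481. Its rise in senescent cells was 0.61 ± 0.10 (adjusted p = 3.41e-05) and 0.45 ± 0.10 (adjusted p = 0.000840). In control cells it did not pass, with 0.13 ± 0.10 for each inhibitor (adjusted p = 0.325 and 0.294) and overlapping libraries. CANX, the membrane-bound one, was 678, 640 and 464 CPM in control and 707, 736 and 635 CPM in senescent cells with DMSO, where 464 CPM belongs to the replicate that stood apart. It was 904, 833 and 870 CPM with IMP1088 and 979, 807 and 909 CPM with DDD86481 in control cells. In senescent cells it was 907, 890 and 908 CPM with IMP1088 and 1007, 889 and 924 CPM with DDD86481. All 12 treated libraries were above all DMSO libraries. CANX rose by 0.55 ± 0.11 and 0.60 ± 0.11 in control cells (adjusted p = 0.00103 and 0.000468) and by 0.38 ± 0.11 and 0.44 ± 0.11 in senescent cells (adjusted p = 0.0105 and 0.00395). The rise with IMP1088 in senescent cells was lost without senescent DMSO replicate 3 (0.32, adjusted p = 0.0575). With DMSO, the difference between states (0.22 ± 0.11, adjusted p = 0.0913) passed without control DMSO replicate 1 (0.33, adjusted p = 0.0180).

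The 3 protein disulphide isomerases had changes of at most 0.46 on the log2 scale with either inhibitor. PDIA3 (ERp57), which works on glycoproteins held by CALR and CANX, was 446, 471 and 502 CPM in control and 460, 462 and 416 CPM in senescent cells with DMSO. Senescent libraries had 593, 564 and 551 CPM with IMP1088 and 548, 541 and 496 CPM with DDD86481, above the senescent DMSO libraries. The rise was 0.35 ± 0.09 with IMP1088 (adjusted p = 0.00283) and 0.24 ± 0.09 with DDD86481 (adjusted p = 0.0305). The latter call was lost without senescent DMSO replicate 3 (0.20, adjusted p = 0.124), without senescent DDD86481 replicate 1 or 2 (0.22 and 0.23, adjusted p = 0.0825 and 0.0821) and without the filter on low counts (0.23, adjusted p = 0.0828). In control cells PDIA3 did not pass, with -0.06 ± 0.09 for each inhibitor (adjusted p = 0.635 and 0.636).

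PDIA4 (ERp72), which has more thioredoxin-like domains than the other 2, was 246, 259 and 264 CPM in control and 357, 337 and 326 CPM in senescent cells with DMSO, groups that did not overlap. The difference between states was 0.41 ± 0.11 (adjusted p = 0.00256). In senescent cells it was 484, 465 and 454 CPM with IMP1088 and 436, 403 and 371 CPM with DDD86481. These lie above the senescent DMSO libraries, and the change passed with IMP1088 (0.46 ± 0.11, adjusted p = 0.00187) but not with DDD86481 (0.25 ± 0.11, adjusted p = 0.0764), except with only the groups compared in the fit (0.28, adjusted p = 0.0230). In control cells it was 299, 281 and 341 CPM with IMP1088 and 369, 255 and 308 CPM with DDD86481. The changes were 0.26 ± 0.11 (adjusted p = 0.0717) and 0.28 ± 0.11 (adjusted p = 0.0519). The first passed without control IMP1088 replicate 2 (0.33, adjusted p = 0.0482). The second passed without control DDD86481 replicate 2 (0.40, adjusted p = 0.00624), without the filter on low counts, with DESeq2 or its size factors and with a replicate block (0.27, adjusted p = 0.0498).

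PDIA6 (P5), which is also known to act on the sensor IRE1, was not called in any of these 5 comparisons. It was 357, 383 and 433 CPM in control and 442, 418 and 416 CPM in senescent cells with DMSO. Senescent libraries had 505, 492 and 501 CPM with IMP1088 and 545, 470 and 435 CPM with DDD86481. The IMP1088 libraries lay above the senescent DMSO libraries, and the difference was 0.23 ± 0.10 (adjusted p = 0.0757), which passed only with the 2 groups compared in the fit (0.26, adjusted p = 0.000750). With DDD86481 it was 0.18 ± 0.10 (adjusted p = 0.160). In control cells it was 359, 349 and 389 CPM with IMP1088 and 410, 315 and 373 CPM with DDD86481, and the differences were -0.10 ± 0.10 in both (adjusted p = 0.505 and 0.498). As a large part of its exonic bases is shared with ATP6V1C2 on the other strand, its level is uncertain in all libraries.

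Whether the response to each inhibitor differed between senescent and control cells was tested next, as the change in senescent minus the change in control cells. For IMP1088, 4 of the 10 had a greater change in senescent cells and none a smaller one, where 12.1% of all genes were called higher and 14.2% lower. The difference was 0.77 ± 0.20 for HSPA5 (adjusted p = 0.00887), 0.67 ± 0.16 for HSP90B1 (adjusted p = 0.00553), 0.49 ± 0.14 for CALR (adjusted p = 0.0132) and 0.41 ± 0.13 for PDIA3 (adjusted p = 0.0200). These are the HSP70 BiP, the HSP90 of the ER, a lectin and an isomerase that works with that lectin. The PDIA3 difference was lost without senescent DMSO replicate 3 (0.36, adjusted p = 0.0522) and without senescent IMP1088 replicate 1 (0.38, adjusted p = 0.0550). For HYOU1 the difference was -0.48 ± 0.23 (adjusted p = 0.129), and it passed without control DMSO replicate 1 (-0.60, adjusted p = 0.0476) and without the filter on low counts (-0.49, adjusted p = 0.0381). Without that same library PDIA6 also passed (0.39, adjusted p = 0.0438), so that 6 of the 10 were called. With only the groups compared in the fit, DNAJB9 (0.42, adjusted p = 0.0292) and PDIA6 (0.36, adjusted p = 0.0395) passed.

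For DDD86481, 1 of the 10 had a greater and 1 a smaller change in senescent cells, where 14.4% of all genes were called higher and 15.9% lower, so neither count stands above the background. HSP90B1 differed by 0.50 ± 0.16 (adjusted p = 0.0277) and HYOU1 by -0.64 ± 0.23 (adjusted p = 0.0439). Neither call held in every fit that left out 1 library. HSP90B1 was lost without control DDD86481 replicate 2 (0.42, adjusted p = 0.0513), senescent DDD86481 replicate 1 (0.42, adjusted p = 0.0748) or senescent DMSO replicate 3 (0.43, adjusted p = 0.0733). HYOU1 was lost in 10 of the 12 such fits, with its smallest difference without control DDD86481 replicate 1 (-0.34, adjusted p = 0.212). Without control DMSO replicate 3, the library that stood apart, it was -0.51 (adjusted p = 0.0916). Control DDD86481 replicate 1 held the highest control values of HSPA5, HYOU1, DNAJB9 and DNAJC3. When control DDD86481 replicate 1 was left out, 6 of the 10 differed between states. Among them were HSPA5 (0.76, adjusted p = 0.00288), DNAJB9 (0.70, adjusted p = 0.00198), CALR (0.45, adjusted p = 0.0183), PDIA3 (0.41, adjusted p = 0.0241) and PDIA6 (0.40, adjusted p = 0.0464). With all libraries the HSPA5 difference was 0.48 ± 0.20 (adjusted p = 0.0784), which passed with upper quartile scaling (0.53, adjusted p = 0.0445) and without the filter on low counts (0.47, adjusted p = 0.0264), and that of DNAJB9 was 0.35 ± 0.22 (adjusted p = 0.229). Without control DMSO replicate 1, CALR (0.37, adjusted p = 0.0424) and PDIA3 (0.34, adjusted p = 0.0389) passed in addition to HSP90B1 and HYOU1.

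**Figure D3:**
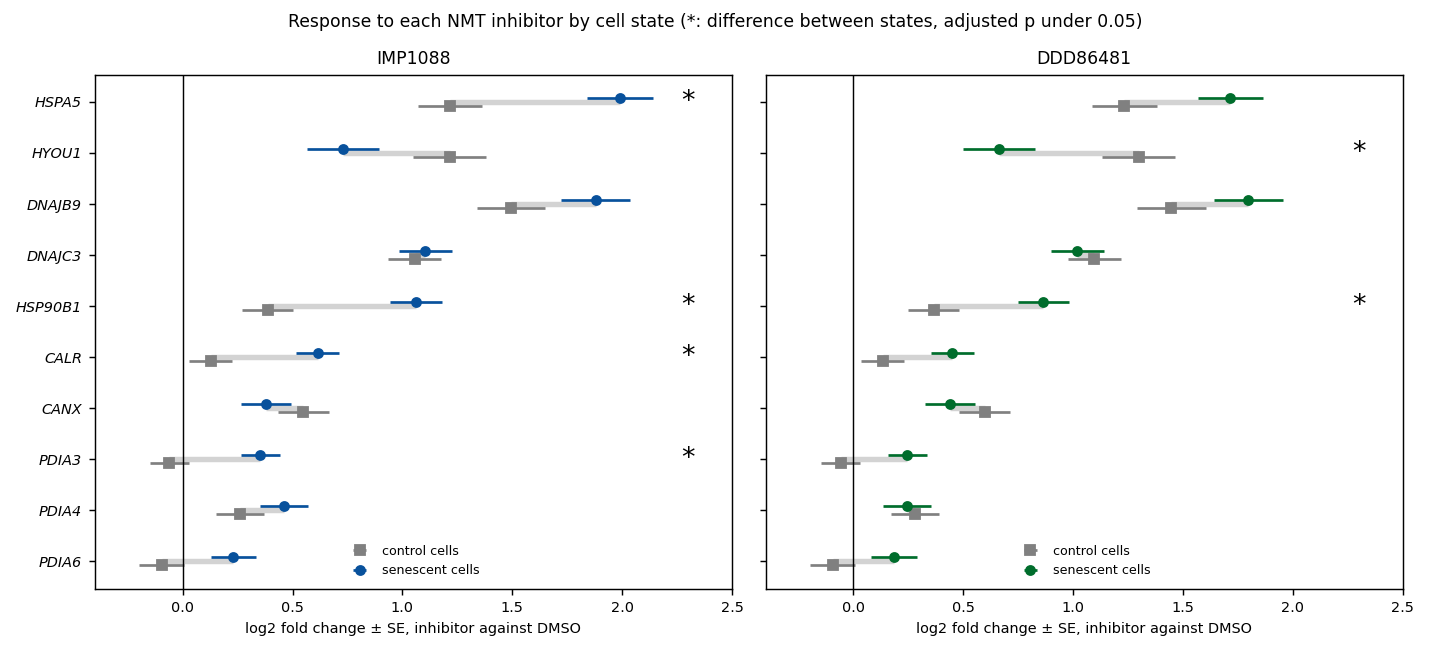
Log2 fold change ± SE against DMSO (x axis) of each ER chaperone (y axis) in control cells (grey squares) and senescent cells (coloured circles), for IMP1088 (left) and DDD86481 (right), with an asterisk where the difference between states had an adjusted p under 0.05. HSPA5, HSP90B1, CALR and PDIA3 carry an asterisk with IMP1088, and HSP90B1 and HYOU1, which lie on opposite sides, carry one with DDD86481.

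Seen the other way, among inhibitor-treated cells the senescent ones held more of most chaperone transcripts. With IMP1088, 7 of the 10 were higher in senescent than in control cells and none lower, where 36.2% of all genes were called higher and 37.9% lower. With DDD86481 the count was also 7 and none, against 36.1% and 37.9%. CANX, DNAJC3 and HYOU1 were the 3 not called in either, with differences between -0.13 and 0.11. HSPA5 was 1.28 ± 0.15 and 0.99 ± 0.15 higher with IMP1088 and DDD86481 (adjusted p = 1.26e-07 and 3.90e-06). DNAJB9 was 0.89 ± 0.15 and 0.85 ± 0.15 higher (adjusted p = 2.57e-05 and 4.11e-05). PDIA6, which was called against DMSO with neither inhibitor, was 0.45 ± 0.10 and 0.40 ± 0.10 higher in senescent cells (adjusted p = 0.000606 and 0.00164). The call of PDIA3 with DDD86481 (0.22 ± 0.09, adjusted p = 0.0323) was lost in 4 of the 6 fits that left out 1 library (lowest 0.16, adjusted p = 0.135, without control DDD86481 replicate 2), with only the groups compared in the fit (0.22, adjusted p = 0.0541) and under upper quartile scaling (0.11, adjusted p = 0.259).

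The 10 genes together took a larger share of the library with the inhibitors. Their summed counts made up 0.548% ± 0.0163 (SD, n = 3) of all counts in control and 0.530% ± 0.0261 in senescent cells with DMSO. With IMP1088 the share was 0.787% ± 0.0551 in control and 1.14% ± 0.0296 in senescent cells. With DDD86481 it was 0.790% ± 0.133 in control and 0.999% ± 0.0696 in senescent cells. The treated libraries of each state lay above all DMSO libraries. HSPA5 alone supplied 54.4% and 54.2% of the added share in senescent cells with IMP1088 and DDD86481, and 50.2% and 50.1% in control cells. HSP90B1 supplied 16.5% and 16.2% in senescent cells, while CANX supplied 13.02% and 13.99% in control cells, and HSP90B1 12.8% and 11.6%. Longer transcripts give more counts, so these parts are not amounts of message. As a part of all chaperone counts, HSPA5 went from 15.99% in control and 19.8% in senescent cells with DMSO to 38.4% in senescent cells with IMP1088 and 36.0% with DDD86481. These shares are description, with no test, and a share of counts cannot separate more of these messages from less of others.

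**Figure D4:**
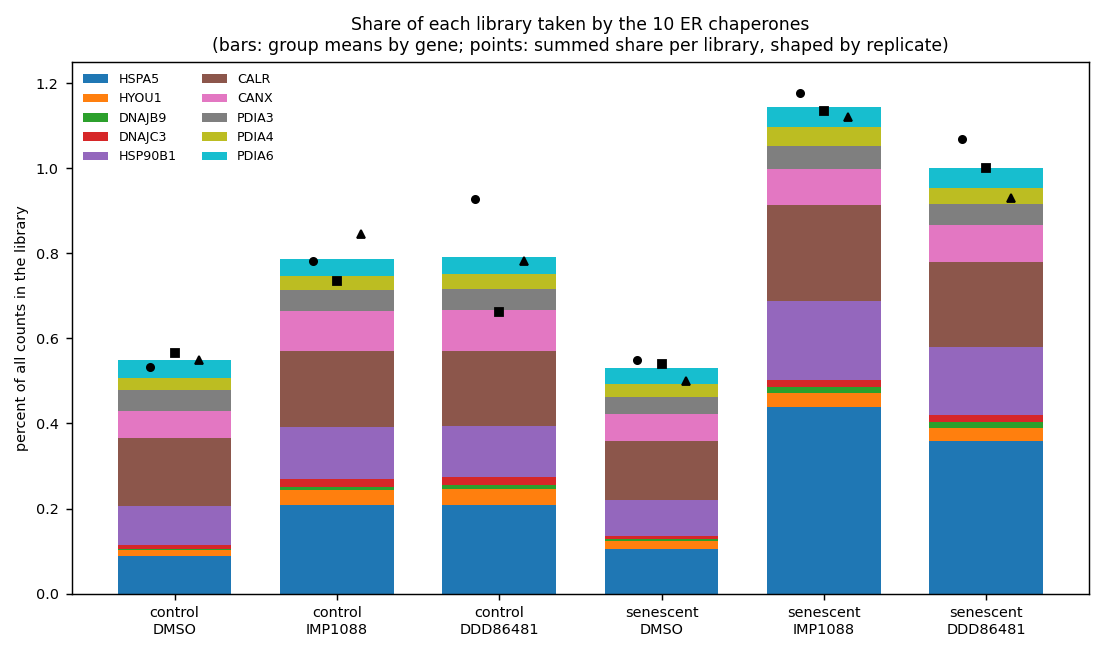
Percent of all counts in the library (y axis, from 0) taken by the 10 ER chaperones in each group (x axis), as stacked group means by gene, with points for the summed share of each of the 3 libraries. The stack grows from 0.548% and 0.530% with DMSO to 1.14% in senescent cells with IMP1088, mostly through the HSPA5 and HSP90B1 segments.

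Other genes of ER folding were counted from 5 lists, holding 48 genes of which 45 were tested. In senescent cells IMP1088 raised 31 of the 45 and lowered 3 (TMX3, TMX4 and FKBP9), and DDD86481 also raised 31 and lowered 3, with medians of 0.46 and 0.40. In control cells IMP1088 raised 23 and lowered 3, while DDD86481 raised 23 and lowered 2, with a median of 0.27 for each. The share called higher was thus above that of all genes in all 4 comparisons. Of all genes, 20.6% and 20.1% were higher in senescent cells with IMP1088 and DDD86481, and 16.3% and 17.8% in control cells. The shares called lower were 23.9% and 23.1% in senescent cells, and 17.4% and 18.7% in control cells. Counts of the single lists below stand against these same shares. Among 9 partners of ER HSP70, 8 were higher in each of the 4 comparisons. HSPA13 (STCH), an ER HSP70 that lacks a peptide-binding domain, changed by 1.38 ± 0.12 and 1.27 ± 0.12 in senescent cells with IMP1088 and DDD86481 (adjusted p = 2.74e-08 and 9.12e-08). DNAJC1, a membrane J-domain protein, changed by 1.31 ± 0.13 and 1.15 ± 0.13 (adjusted p = 9.63e-08 and 5.96e-07). In control cells these 2 genes rose by 0.99 and 0.51 with IMP1088 and by 1.01 and 0.47 with DDD86481, and the DNAJC1 calls were lost with only the groups compared in the fit (adjusted p = 0.0621 and 0.0989). SIL1, a nucleotide exchange factor of BiP, was the partner that did not rise in any of the 4, and it was lower with IMP1088 in control cells (-0.33, adjusted p = 0.0435). It was named after its values were seen.

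Of 7 genes of the glycoprotein folding cycle, 5 were higher with each inhibitor in senescent cells, and 5 and 6 in control cells with IMP1088 and DDD86481. UGGT2, a form of the glucosyltransferase that returns unfolded glycoproteins to the lectins, rose by 0.62 ± 0.10 and 0.64 ± 0.10 in senescent cells (adjusted p = 3.56e-05 and 2.80e-05) and by 0.39 and 0.42 in control cells. CLGN, a calnexin relative best known from testis, was the exception between states. It rose by 1.23 ± 0.14 and 1.11 ± 0.14 in senescent cells (adjusted p = 4.44e-07 and 1.82e-06) and fell by 0.39 ± 0.14 with IMP1088 in control cells (adjusted p = 0.0328), which failed the test when 1 library was left out in 4 of 6 cases (-0.27 without control DMSO replicate 3) and with only the groups compared (adjusted p = 0.101). The difference between states was 1.63 and 1.39 for IMP1088 and DDD86481.

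The disulphide list was mixed. Of its 16 tested genes, 11 were higher and 2 (TMX3 and TMX4) lower in senescent cells with each inhibitor, and 7 and 6 were higher in control cells with IMP1088 and DDD86481. P4HB, the archetypal disulphide isomerase and a subunit of collagen prolyl hydroxylase, had 1582 CPM in senescent cells with DMSO, 3979 CPM with IMP1088 and 3570 CPM with DDD86481. Its changes of 1.33 ± 0.10 and 1.17 ± 0.10 (adjusted p = 5.20e-09 and 2.61e-08) were larger than those of the 3 isomerases among the 10 chaperones, and in control cells it changed by 0.50 and 0.51. TMX4, a membrane-bound thioredoxin-like protein, went the other way. It was 62.1 CPM in control and 306 CPM in senescent cells with DMSO, and in senescent cells it fell by 0.99 ± 0.10 and 0.86 ± 0.10 (adjusted p = 9.63e-08 and 6.73e-07), with no call in control cells (0.04 and 0.15).

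Proline isomerases, the procollagen chaperone and calcium-binding CREC proteins came next. Of the 8 isomerases and procollagen genes tested, 4 were higher and 1 (FKBP9) lower in senescent cells with each inhibitor, and 2 higher and 1 (FKBP11) lower in control cells with each. FKBP7 rose by 0.96 ± 0.11 and 0.75 ± 0.12 in senescent cells (adjusted p = 1.37e-06 and 2.45e-05), where its level with DMSO was 21.4 CPM against 61.8 CPM in control cells. FKBP14 rose by 0.67 ± 0.10 and 0.64 ± 0.10 in senescent cells (adjusted p = 1.06e-05 and 1.74e-05). In control cells FKBP14 rose by 0.31 and 0.34 with IMP1088 and DDD86481, calls lost with only the groups compared in the fit (adjusted p = 0.0717 and 0.0693), and the former also without control IMP1088 replicate 3 (0.25). Of 5 CREC genes, 3 were higher in senescent cells and 1 in control cells with each inhibitor. In control cells the counts of this list and of the isomerase list are near the shares of all genes. Those were 16.3% and 17.8% higher and 17.4% and 18.7% lower with IMP1088 and DDD86481. RCN3, a secretory-pathway calcium-binding protein, rose by 1.28 ± 0.13 with each in senescent cells (adjusted p = 2.10e-07 and 2.29e-07), and differed by 0.21 and 0.20 in control cells, which passed without control DMSO replicate 3 (0.37 for each). RCN1 rose by 0.55 ± 0.10 and 0.59 ± 0.10 in senescent cells (adjusted p = 0.000235 and 0.000112) and differed by 0.00 and -0.03 in control cells, where the first changed sign with upper quartile scaling (-0.05), and both when single libraries were left out. CREC proteins are known mainly for binding calcium.

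The KDEL receptors, which return escaped soluble chaperones to the ER, were also read. KDELR3 rose by 1.10 ± 0.12 and 0.89 ± 0.12 in senescent cells with IMP1088 and DDD86481 (adjusted p = 3.05e-07 and 4.45e-06). KDELR2 rose by 0.68 ± 0.09 and 0.64 ± 0.09 in senescent cells (adjusted p = 7.97e-06 and 1.63e-05). In control cells KDELR2 passed by a narrow margin, with 0.31 for IMP1088 and 0.29 for DDD86481. The first was lost with only the groups compared in the fit (adjusted p = 0.0992) and without control DMSO replicate 2 (0.28) or control IMP1088 replicate 3 (0.26). The second was lost with upper quartile scaling (0.22, adjusted p = 0.0645), with only the groups compared (adjusted p = 0.141) and without control DDD86481 replicate 1 (0.22) or control DMSO replicate 1 (0.24) or 2 (0.26). KDELR1 rose by 0.48 ± 0.11 with IMP1088 in senescent cells (adjusted p = 0.00203) and differed by 0.26 ± 0.11 with DDD86481 (adjusted p = 0.0727), which passed without senescent DDD86481 replicate 1 (0.40, adjusted p = 0.00494) and with only the groups compared in the fit (0.30, adjusted p = 0.0451). In control cells KDELR1 and KDELR3 did not pass with IMP1088, except without control DMSO replicate 3 (0.37, adjusted p = 0.0102, and 0.34, adjusted p = 0.0295).

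Chaperones outside the ER were read for comparison. Of 18 cytosolic and nuclear chaperones, IMP1088 raised 6 and lowered 5 in senescent cells and DDD86481 raised 6 and lowered 4, with medians of 0.03 and 0.08. The counts of lowered genes are near the 23.9% and 23.1% of all genes called lower, while 20.6% and 20.1% were called higher. In control cells IMP1088 raised none and lowered 7, while DDD86481 raised 1 (HSPH1) and lowered 7, with medians of -0.21 and -0.18. Of all genes in control cells, 16.3% and 17.8% were called higher and 17.4% and 18.7% lower. The inducible cytosolic HSP70 genes HSPA1A and HSPA1B, which are near-identical copies so that their reads cannot be assigned with certainty, had 6.38 and 6.74 CPM in senescent cells with DMSO. They rose by 2.38 ± 0.28 and 2.45 ± 0.31 with IMP1088 (adjusted p = 9.29e-07 and 2.30e-06) and by 3.00 ± 0.28 and 2.98 ± 0.31 with DDD86481 (adjusted p = 5.74e-08 and 2.21e-07), from a level below that of control cells (20.6 and 19.5 CPM). Among 6 mitochondrial chaperones, 3 were higher and 1 (GRPEL1) lower in senescent cells with each inhibitor. The shares of all genes there were again 20.6% and 20.1% higher and 23.9% and 23.1% lower. HSPA9 (mortalin), the mitochondrial HSP70, rose by 1.12 ± 0.09 and 1.11 ± 0.09 in senescent cells and by 0.86 ± 0.09 and 0.87 ± 0.09 in control cells (adjusted p between 1.12e-08 and 7.54e-07). DNAJA3, its J-domain partner, rose by 0.44 ± 0.10 and 0.32 ± 0.10 in senescent cells (adjusted p = 0.00136 and 0.0152), the latter lost without senescent DMSO replicate 2 (0.27), and differed by 0.19 and 0.21 in control cells, the latter passing without control DDD86481 replicate 2 (0.31) or control DMSO replicate 1 (0.28).

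**Figure D5:**
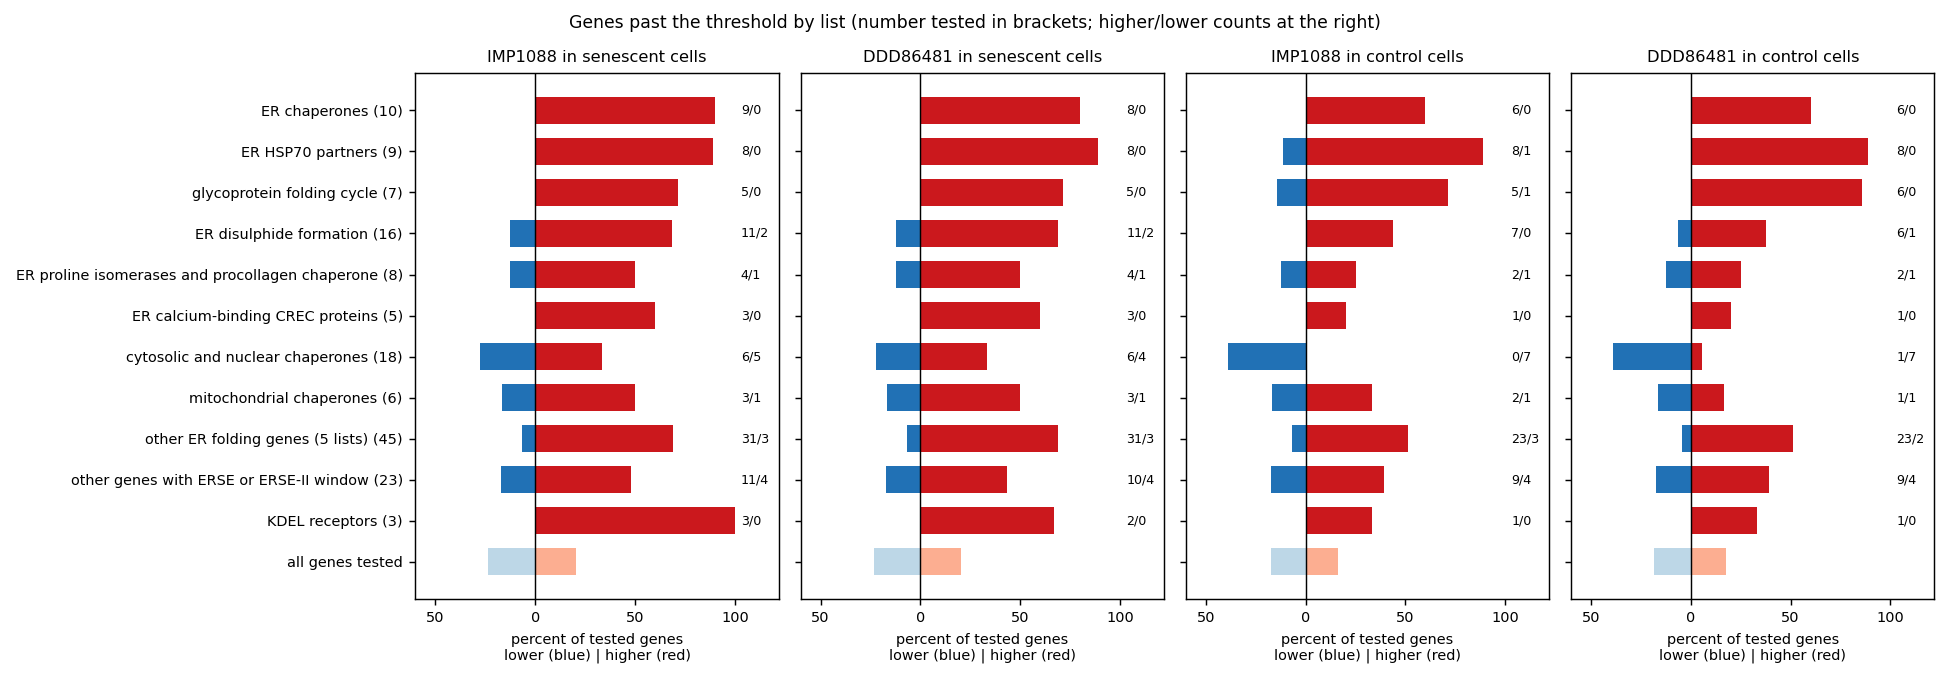
Percent of the tested genes of each list (y axis, number tested in brackets) called higher (red, to the right) or lower (blue, to the left) in 4 comparisons of an inhibitor with DMSO, with the counts printed at the right and all genes tested in pale colours. The ER chaperones and ER HSP70 partners reach 9 of 10 and 8 of 9 higher with IMP1088 in senescent cells, while cytosolic and nuclear chaperones are split 6 to 5.

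Levels of the 10 genes varied together across the libraries to different degrees. The correlation of each gene with the mean of the other 9 over 18 libraries, on standardised log2 CPM, was 0.98 for HSPA5 and HSP90B1, 0.96 for DNAJB9 and 0.93 for CALR. It was 0.90 for PDIA4, 0.79 for HYOU1, 0.77 for PDIA3, 0.75 for CANX, 0.72 for DNAJC3 and 0.65 for PDIA6. Single pairs ran from 0.13 for PDIA6 with DNAJC3 to 0.99 for HSPA5 with DNAJB9. The points share libraries, groups and scaling, so these values describe the pattern over the 6 groups. Outside the 10, the genes most like their mean over the 18 libraries were DNAJB11 (Pearson r = 0.980), SLC30A5 (0.974), DDX50 (0.974), SERP1 (0.971), DDX19A (0.970), SRPRB (0.969), CDK20 (0.969) and PLPBP (0.969). DNAJB11 had 81.8 CPM in control and 100.0 CPM in senescent cells with DMSO and 157 CPM in senescent cells with IMP1088. SERP1 had 164, 207 and 490 CPM and SRPRB 77.2, 90.7 and 185 CPM in the same groups.

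The responses can be set beside the printed elements, as a description. In senescent cells with IMP1088, the 5 genes with an ERSE changed by 1.99 (HSPA5), 1.06 (HSP90B1), 0.61 (CALR), 0.38 (CANX) and 0.23 (PDIA6, not past the threshold). HYOU1, with ERSE-II and UPRE matches, rose by 0.73. The 3 genes whose windows held none of the searched letters rose by 1.88 (DNAJB9), 1.10 (DNAJC3) and 0.46 (PDIA4). Outside the 10, 38 genes had an ERSE or ERSE-II in a window and 23 of them were tested. With IMP1088, 11 of the 23 were higher and 4 lower in senescent cells and 9 and 4 in control cells, and with DDD86481 10 and 4 and again 9 and 4. Of all genes, 20.6% were higher and 23.9% lower with IMP1088 in senescent cells, and 16.3% and 17.4% in control cells. With DDD86481 these shares were 20.1% and 23.1%, and 17.8% and 18.7%, so the counts of lower genes are not above the background. Some of the 23 share an element with a neighbour on the other strand, and some are also in the ER folding lists. Among them HERPUD1, a component of ER-associated degradation with an ERSE-II, rose by 2.39 ± 0.14 in senescent cells with IMP1088 (adjusted p = 2.11e-10), SERP1, a translocon-associated protein with an ERSE, by 1.24 ± 0.11 (adjusted p = 2.23e-08), and XBP1, the transcription factor of the response, by 0.78 ± 0.12 (adjusted p = 3.09e-05). The 4 genes lower in that comparison were SYNPO, TRIM5, GYS1 and PLS3. These 4 and the 3 above were named after their values were seen.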

How the data were processed

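Poly(A) RNA of IMR90 ER:RAS cells was sequenced in 18 libraries, and the authors deposited raw read counts per gene for all of them. The study's methods name TopHat on hg19, while the submitters' processing notes name hg38, DRAGEN, STAR 2.7.8a and DESeq2 1.32.0, so build and counter of the deposited counts are not settled. Libraries labelled DDD86481 carry another name of that compound, PCLX001, in their column headers. Groups came from the treatment labels. From these counts, genes were filtered with filterByExpr (14341 of 28266 kept, 99.962% of counts, and 6836 had no count), scaled by TMM and fitted with edgeR 4.0.16 (quasi-likelihood, 1 fit of 6 groups) in R 4.3.3. P-values were adjusted by Benjamini-Hochberg over all genes, with a threshold of 0.05. CPM uses TMM-scaled totals, and CPM per kb the exonic length of the Ensembl canonical transcript. Library totals of 16143716 to 23189950 set a floor of 3 counts at 0.121 to 0.187 CPM, and these limits cover counting error only. Alternatives were DESeq2 1.42.0, DESeq2 size factors or upper quartile scaling, no filter, only the groups compared, a replicate block and leaving out each library. Among the pairs of groups that a comparison sets against each other, same-numbered libraries deviated together only in control DMSO and control IMP1088 (r = 0.394, 0.123 and 0.231 for replicates 1 to 3), and nothing in the labels gives a reason. On simulated counts for IMP1088 in senescent cells, 94 of 100 genes given a 2-fold change passed the test, as did 55 of 100 given a 1.5-fold change, among 14000 genes. There 13800 genes were left unchanged, while 6374 genes passed in the data. The adjusted threshold was thus stricter in the simulation, and these shares do not carry over to the data. The genes, lists and tests were chosen with earlier results of these data known. Genes named by rule besides the 10 were the KDEL receptors, the 8 most correlated genes, and from each list the 2 past the threshold with the largest change with IMP1088 in senescent cells whose libraries did not overlap those of DMSO. Others (SIL1, HERPUD1, XBP1, TMX3, FKBP9, FKBP11, HSPH1, GRPEL1, SYNPO, TRIM5, GYS1 and PLS3) were named after their values were seen. Protein sequences were not used here. Coordinates come from GENCODE (GRCh37) for genes and RefSeq (GRCh38.p14) for promoters.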

Additional observations from a re-analysis of the deposited data

Results flagged for a closer look

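For 6 results the change with an inhibitor differed between senescent and control cells by the test of the difference itself. With IMP1088 the change was greater in senescent cells by 0.77 on the log2 scale for HSPA5, by 0.67 for HSP90B1, by 0.49 for CALR and by 0.41 for PDIA3. With DDD86481 it was greater by 0.50 for HSP90B1, and for HYOU1 the difference was -0.64, a smaller change in senescent cells. The HYOU1 difference was -0.34 (adjusted p = 0.212, edgeR) without control DDD86481 replicate 1, that of HSP90B1 with DDD86481 was 0.42 (adjusted p = 0.0748) without senescent DDD86481 replicate 1, and that of PDIA3 was 0.36 (adjusted p = 0.0522) without senescent DMSO replicate 3. The causes were not tested. No group had more than 3 libraries, so no result was flagged for a single library far from the rest. Control DMSO replicate 3 was named above from the chi-square between replicates.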

How the results depend on the processing

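Over 90 log2 fold changes of the 10 chaperones, 1200 alternative values were computed, of which 1115 kept direction and side of the threshold, 32 lost the call, 29 gained it and 24 changed sign. The replicate block changed no count of chaperones called by over 1.5 times, and among their values it changed the sign of DNAJC3 between states with IMP1088 (0.0018) and the call of PDIA4 with DDD86481 in control cells (0.27). With only the groups compared in the fit, 2716 genes passed for IMP1088 in control cells (4829 otherwise) and 2842 for DDD86481 (5242 otherwise). The difference between states for DDD86481 called 4 of the chaperones with upper quartile scaling, 4 with DESeq2 and 1 with only the groups compared, against 2, and 0 to 6 when 1 library was left out (0 without senescent DDD86481 replicate 1 or senescent DMSO replicate 3, 6 without control DDD86481 replicate 1). With the 10 most abundant genes left out of the total, the share of counts was 0.583% and 0.574% in control and senescent cells with DMSO, and 1.24% and 1.08% in senescent cells with IMP1088 and DDD86481. No value that changed sign was past the threshold. With upper quartile scaling they were HSP90B1 (-0.015), CALR (-0.097) and PDIA6 (-0.034) for senescence with DMSO, CANX between states with IMP1088 (-0.050) and DDD86481 (-0.040), PDIA4 in the difference between states for DDD86481 (0.019, and 0.0066 with only the groups compared), TMX4 (-0.0077) and RCN1 (-0.052, and -0.00061 without the filter) with IMP1088 and HSPA1A (-0.054) with DDD86481 in control cells. DNAJC3 between states with IMP1088 was 0.019 with DESeq2 and with its size factors and 0.024 without the filter. When 1 library was left out, DNAJC3 ran from -0.11 to 0.0080 for senescence with DMSO, from -0.082 to 0.060 and from -0.25 to 0.042 between states with IMP1088 and DDD86481 (HYOU1 with DDD86481 from -0.25 to 0.22), and from -0.0085 to 0.14 and from -0.17 to 0.13 in the differences between states. In the same way PDIA4 ran from -0.11 to 0.14 in the difference for DDD86481, and in control cells with DDD86481 PDIA3 ran from -0.12 to 0.0078, PDIA6 from -0.18 to 0.0023, RCN1 from -0.12 to 0.10 and HSPA1A from -0.071 to 0.12, while with IMP1088 TMX4 ran from -0.059 to 0.12 and RCN1 from -0.093 to 0.13. The causes were not tested. Depth and 3 libraries a group limit how small a change can be called. Of simulated 1.5-fold differences between states with IMP1088, 22 of 100 passed. In that simulation 13800 genes were unchanged, while 3761 genes passed in the data, so this share does not carry over.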
